A study of Mus musculus with 3 samples.

Results

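The lysyl oxidase family of the mouse has 5 genes, Lox, Loxl1, Loxl2, Loxl3 and Loxl4, and all 5 were read in RNA-seq of wild-type (WT) mouse embryonic fibroblasts (MEFs). The genes were chosen by their names, and they are 5 of the 21782 genes in the count table. In a study of cohesin variants, polyA-selected RNA of 3 clones of primary MEFs was sequenced, with 1 library for each clone. The cells came from E12.5 embryos, carried the WT genotype, received no treatment and grew asynchronously in DMEM with 20% serum. The sex, strain and litter of the embryos are not given in the sources used here, and the libraries hold 1 condition, so the comparisons below are between genes and between clones.

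Lysyl oxidases are copper-dependent amine oxidases that cells secrete into the extracellular matrix. They oxidise the amino group of lysine and hydroxylysine side chains in collagen and elastin to an aldehyde, and the aldehydes then condense into the covalent cross-links that make fibres stiff and insoluble. Fibroblasts, which lay down collagen, are a main source of these enzymes. The family has 2 subgroups that share the catalytic C-terminal domain. LOX and LOXL1 are made as proenzymes that BMP1 and related proteases cleave, whereas LOXL2, LOXL3 and LOXL4 carry 4 scavenger receptor domains in front of the catalytic one.

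The catalytic domain is also where the genes are most alike, so it decides whether a read can be placed on 1 of them. The stretch of coding sequence with the most bases shared by all 4 is shown for the 4 paralogs of Lox. Lox was not part of this search, and single pairs may be more alike elsewhere. Each sequence has 86 bases, the length of a read, and spans the junction of a pair of exons (GENCODE M21 transcripts, GRCm38). The span includes the intron between them. Capitals mark the 52 positions with the same base in all 4 genes.
Loxl1 (minus strand, chr9:58290869-58292652, exons 5 and 6 of 7): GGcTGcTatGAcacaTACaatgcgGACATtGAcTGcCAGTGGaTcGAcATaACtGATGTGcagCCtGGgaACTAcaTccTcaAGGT
Loxl2 (plus strand, chr14:69690187-69692315, exons 12 and 13 of 14): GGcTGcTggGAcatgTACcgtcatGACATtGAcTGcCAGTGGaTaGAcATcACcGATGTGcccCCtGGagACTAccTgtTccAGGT
Loxl3 (plus strand, chr6:83050361-83050559, exons 12 and 13 of 14): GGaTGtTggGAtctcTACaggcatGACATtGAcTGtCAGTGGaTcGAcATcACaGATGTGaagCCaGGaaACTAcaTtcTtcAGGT
Loxl4 (minus strand, chr19:42597608-42598028, exons 13 and 14 of 15): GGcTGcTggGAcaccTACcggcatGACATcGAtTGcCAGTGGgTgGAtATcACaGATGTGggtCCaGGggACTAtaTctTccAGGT
In this stretch, the 4 genes were far enough apart. Loxl2 and Loxl4 differed at 17 of the 86 positions, the closest pair, and Loxl1 and Loxl4 differed at 24, while the alignment of the reads allowed 2 mismatches. No stretch of 86 nt in the transcript of any member, Lox included, matched the transcripts of another member with 2 or fewer mismatches.

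At the protein level, the subgroups stood apart. LOX and LOXL1 were identical at 57.9% of aligned residues in a global alignment, and at 75% of those in the last 200 residues of LOX. LOXL2, LOXL3 and LOXL4 were identical to each other at 56.5% to 57.9% of aligned residues. Between a member of one subgroup and a member of the other, identity was lower, from 36.8% to 44.6%. The longest annotated proteins have 411 residues for LOX, 607 for LOXL1, 776 for LOXL2, 754 for LOXL3 and 758 for LOXL4. The transcripts with the longest coding sequences, used below as the length of each gene, have 4741 nt for Lox, 3297 nt for Loxl1, 5316 nt for Loxl2, 4098 nt for Loxl3 and 2617 nt for Loxl4.

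The 5 genes lie on 5 chromosomes (GRCm38). Lox is at chr18:52516067-52529867 on the minus strand with 7 exons. Loxl1 is at chr9:58287738-58313186 on the minus strand with 7 exons, Loxl2 at chr14:69609068-69695834 on the plus strand with 14, Loxl3 at chr6:83034173-83052562 on the plus strand with 14 and Loxl4 at chr19:42593982-42612813 on the minus strand with 15.

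Lox, the founding member, had 59417, 48995 and 48812 counts in clones 1, 2 and 3. In counts per 1000000 after scaling of library sizes (CPM), this was 2392, 2173 and 1933, with a mean of 2166 ± 230 (SD, n = 3 clones). Clone 1 was the highest and clone 3 the lowest, with 1.24-fold between them. Only 37 genes in the table had a higher mean CPM than Lox. Per kb of transcript, the scale on which genes of different lengths can be compared, Lox was at 457 ± 48.4 CPM per kb. For comparison, the median over 11345 expressed genes with a length was 8.47 CPM per kb, and 127 of them were above Lox.

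Loxl1, known for its part in elastic fibres, had 20361, 18331 and 18901 counts in clones 1, 2 and 3, or 820, 813 and 748 CPM (794 ± 39.3, SD, n = 3). It varied least of the 5 genes, with a coefficient of variation of 4.96% between clones and 1.10-fold between the highest and the lowest. Of 12218 genes tested, 84.5% had a larger fold between clones than Loxl1. Per kb, Loxl1 was at 241 ± 11.9 CPM per kb, and 239 expressed genes were higher.

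Loxl2, which acts on collagen IV of basement membranes and on fibrillar collagen, had the most counts of the family in clones 1 and 3. Its counts in clones 1, 2 and 3 were 76011, 47570 and 61985, or 3059, 2110 and 2454 CPM (2541 ± 481, SD, n = 3). Clone 1 was 1.45-fold above clone 2, the widest fold within the family. Per kb, Loxl2 was at 478 ± 90.4 CPM per kb, and 121 expressed genes were higher.

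Loxl3, which is needed for the palate and the spine in mouse development, ran the other way between clones 1 and 2. It had 12870, 16708 and 13884 counts in clones 1, 2 and 3, which is 518, 741 and 550 CPM (603 ± 121, SD, n = 3). It was the single member with its highest level in clone 2, 1.43-fold above clone 1. Per kb, Loxl3 was at 147 ± 29.4 CPM per kb, and 398 expressed genes were higher.

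Loxl4 was the lowest member. It had 3444, 3112 and 2905 counts in clones 1, 2 and 3, or 139, 138 and 115 CPM (131 ± 13.5, SD, n = 3). Clones 1 and 2 were alike and clone 3 was lower, with 1.21-fold between the extremes. Per kb, Loxl4 was at 49.9 ± 5.14 CPM per kb, still 5.89-fold above the median expressed gene, and 10.9% of expressed genes were higher. Together, the 5 genes took 0.623% ± 0.0507 (SD, n = 3) of all counts.

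**Figure D1:**
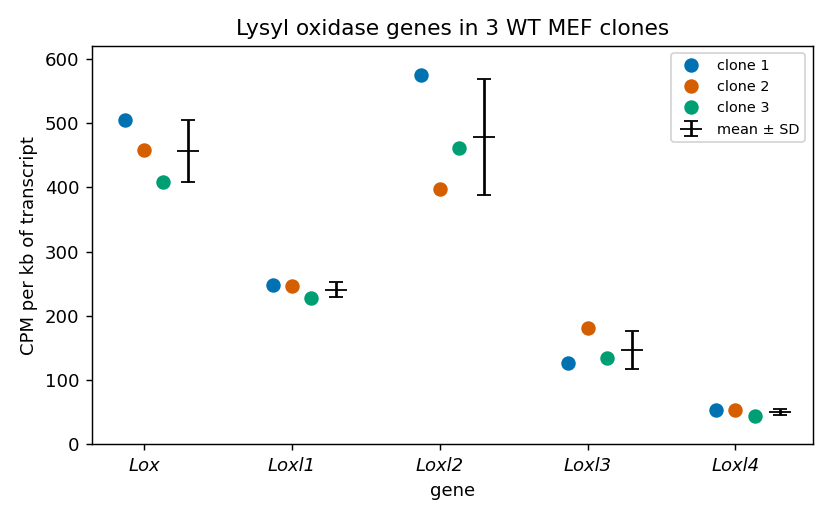
Level of each lysyl oxidase gene in CPM per kb of transcript, with 1 point per clone and the mean ± SD of the 3 clones in black. Lox and Loxl2 share a range between 397 and 576 CPM per kb, and Loxl1, Loxl3 and Loxl4 follow without overlap down to 44.0 for Loxl4 in clone 3.

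Per kb, the order of the means was Loxl2, Lox, Loxl1, Loxl3 and Loxl4. In 9 of the 10 pairs of genes, the ranges over the clones did not overlap, and the gene with the higher mean was higher in 3 of 3 clones. Lox was 1.89-fold above Loxl1, Loxl1 was 1.66-fold above Loxl3 and Loxl3 was 2.92-fold above Loxl4. An exact sign-flip permutation test (two-sided) of these pairs gave p = 0.25, the smallest that 3 clones allow, and 0.278 after adjustment over the 10 pairs. The exception was the pair at the top. Lox was below Loxl2 by 0.19 and 0.18 on the log2 scale in clones 1 and 3, and above it by 0.21 in clone 2, so their difference of -0.05 ± 0.23 (SD, n = 3) was smaller than its spread (exact p = 1.0).

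The place of Loxl2 depended on which of its bases could hold a counted read. Of the 5231 stretches of 86 nt in its transcript, 2380 (45.5%) matched another annotated transcript with 2 or fewer mismatches, and 2056 of these lay inside the coding sequence. Nearly all of them, 2265 stretches, matched Gm21451, an unprocessed pseudogene on the same chromosome (chr14:69390854-69480287, plus strand), and 2263 of those did so without a mismatch. Gm21451 is not in the count table, and how reads that fit both places were counted is not stated. If such reads were left out, the counts of Loxl2 come from the other 2851 stretches. Divided by these, a calculation added after the data were seen, Loxl2 was at 891 ± 169 CPM per kb. It was then above Lox in 3 of 3 clones, by 0.93 on the log2 scale.

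A shorter transcript gave a similar shift. One annotated transcript of Loxl2 has a coding sequence of the same length as the one used here but 3042 nt in all. If all Loxl2 reads came from it, the level of Loxl2 would be 835 ± 158 CPM per kb. The counts per gene do not tell the transcripts apart, so the order of Lox and Loxl2 was not settled by these data. The order of the other 3 genes was the same with each of the 5 lengths. The differences of a gene between clones do not depend on its length.

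**Figure D2:**
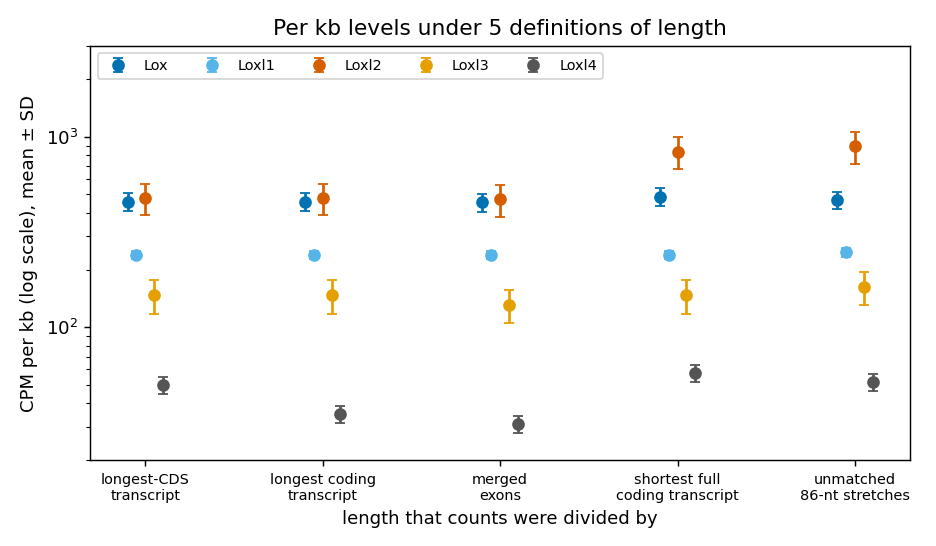
Mean level of the 5 genes in CPM per kb on a log scale (bars, SD over 3 clones) with counts divided by 5 definitions of length. Loxl2 moves from 478 to 891 CPM per kb and away from Lox when shared stretches are left out, while Loxl1, Loxl3 and Loxl4 keep their order.

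Loxl3 had a further stretch of doubt. Its exons share 535 bases with Htra2, a mitochondrial protease gene on the opposite strand, which is 11.6% of its merged exons, and 312 of its 4013 stretches (7.78%) matched Htra2. Whether the counting used the strand of a read is not stated. This also bears on 301 bases that Loxl2 shares with Gm27177 on the opposite strand (5.66% of its transcript). Lox shares 30 bases with AC161119.1 on the opposite strand. The range of Htra2 was 73.7 to 76.9 CPM, or 1.04-fold between clones, and Loxl3 was 1.43-fold between clones 1 and 2. Whether reads of the shared bases had a part in the shift of Loxl3 was not tested. Lox, Loxl1 and Loxl4 had no stretch that matched another gene.

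With the lengths used here, the 2 subgroups contributed similar amounts of transcript. Lox and Loxl1 together made up 50.8% ± 1.69 (SD, n = 3) of the summed level per kb of the family, and Loxl2, Loxl3 and Loxl4 the remaining 49.2%. With the unmatched stretches as lengths, the share of Lox and Loxl1 was 39.3% ± 2.36, and with the shortest full coding transcripts 41.2% ± 2.40. The even split therefore depended on the length. By gene, Loxl2 took 34.7% ± 4.42 of the level per kb, Lox 33.3% ± 1.18, Loxl1 17.6% ± 1.01, Loxl3 10.8% ± 2.59 and Loxl4 3.64% ± 0.27. The shares of Loxl2 and Loxl3 moved in opposite directions between clones. Of the counts of the family, Loxl2 took 44.2% in clone 1 (95% Wilson interval 43.9 to 44.4), 35.3% in clone 2 (35.1 to 35.6) and 42.3% in clone 3 (42.1 to 42.6), and Loxl3 took 7.48% (7.35 to 7.60), 12.4% (12.2 to 12.6) and 9.48% (9.33 to 9.63). The intervals hold only the counting error within 1 library, not the spread between clones. PCR copies of a molecule were not marked, so even the counting error may be larger.

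Differences between clones were tested with a chi-square test of each gene's 3 counts against the scaled library sizes, with Benjamini-Hochberg adjustment over the 12218 genes that reached 10 counts in each clone. All 5 lysyl oxidase genes were called as differing (adjusted p under 0.05). This is a weak distinction, since 62.5% of all genes tested were called, and the test measures libraries against counting noise, not conditions. The adjusted p was 1.19e-263 for Lox, 7.71e-21 for Loxl1, 4.01e-245 for Loxl3 and 7.40e-15 for Loxl4, and that of Loxl2, with a chi-square of 4326, was too small to be written. None of the members reached 1.5-fold between its highest and its lowest clone, whereas 18.6% of all genes tested were called and did. The median fold over all genes tested was 1.24, near that of Lox.

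The same was seen with a measure of spread that leaves out counting noise. The biological coefficient of variation between clones, fitted by edgeR, was 0.123 for Lox, 0.108 for Loxl1, 0.155 for Loxl2, 0.159 for Loxl3 and 0.128 for Loxl4. The common value over all genes was 0.187. For Loxl1, 98.3% of genes had a larger value, for Lox 81.6% and for Loxl4 75.4%. For Loxl2 and Loxl3 it was 51.6% and 49.4%. This measure falls with abundance, and the trend edgeR fitted at the level of Loxl2 and Loxl3 was 0.132 and 0.133, below the values of these genes. Lox, Loxl1 and Loxl4 were below their trend values of 0.132, 0.133 and 0.141.

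The direction of the differences was not shared by the family. Lox, Loxl1, Loxl2 and Loxl4 were called and highest in clone 1, as were 23.8% of all genes tested (2904 of the 7642 called). Loxl3 was called and highest in clone 2, as were 23.5% (2867 of the 7642 called). Lox, Loxl1 and Loxl4 were lowest in clone 3, Loxl2 in clone 2 and Loxl3 in clone 1. Of all genes tested, 14.2%, 21.3% and 27.1% were called and lowest in clones 3, 2 and 1. Between clones 1 and 2, where 53.0% of all genes tested were called (24.6% higher in clone 1 and 28.4% higher in clone 2), 3 of the 5 members were called. Loxl2 was lower in clone 2 by 0.54 on the log2 scale and Lox by 0.14, and Loxl3 was higher by 0.52 (adjusted p = 1.15e-204, chi-square test with Benjamini-Hochberg adjustment). The other members, Loxl1 and Loxl4, had log2 differences of -0.01 (95% counting interval -0.04 to 0.02) and -0.01 (-0.08 to 0.06).

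Clone 3 differed from both others in all 5 genes. Between clones 1 and 3, where 45.3% of all genes tested were called (21.2% higher in clone 1 and 24.2% higher in clone 3), Lox, Loxl1, Loxl2 and Loxl4 were lower in clone 3 by 0.31, 0.13, 0.32 and 0.27 on the log2 scale, and Loxl3 was higher by 0.09. Between clones 2 and 3, where 31.7% were called (16.6% higher in clone 2 and 15.1% higher in clone 3), Loxl2 was higher in clone 3 by 0.22, and Lox, Loxl1, Loxl3 and Loxl4 were lower by 0.17, 0.12, 0.43 and 0.26.

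The cells of the clones were checked with markers. All 9 fibroblast markers, among them Col1a1, Col1a2, Vim and Col3a1, had means above 1 CPM, with a sum of 56794, 47171 and 45748 CPM in clones 1, 2 and 3. Of these, 6 were highest in clone 1 and 3 in clone 2. Vim (94147, 94492 and 101684 counts), Thy1 (22192, 31286 and 22065) and Pdgfra (292, 615 and 424), the latter pair named after their values were seen, were the 3. The sum is mostly Col1a1 and Col1a2. Pdgfra, Dcn and Lum were low, at means of 18.6, 7.73 and 2.03 CPM, below the median of 25.7 CPM over expressed genes. Macrophage markers were present as well. All 9 of the 10 in the list that the table holds were highest in clone 2, with a sum of 347, 1631 and 283 CPM in clones 1, 2 and 3, led by Lyz2, Csf1r, C1qa and C1qb. The 6 proliferation markers, led by Mki67, Top2a, Cdk1 and Ccnb1, were also highest in clone 2 (368, 723 and 609 CPM in sum).

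Other cell types gave a mixed picture. Of 7 endothelial markers, 2 had means above 1 CPM, Kdr (163, 214 and 314 counts in clones 1, 2 and 3) and Emcn (307, 4 and 242), and Tie1 was at 0 in every clone. Of 7 muscle markers, 2 had means above 1 CPM, Acta1 (3235, 3805 and 3093 counts) and Des (1778, 701 and 2438), and Ckm was at 0 in every clone. The 6 cartilage markers summed to 799, 549 and 777 CPM, mostly Col2a1 (18263, 10979 and 18297 counts). This sum was lowest in clone 2 as Loxl2 was, but the markers did not run alike. Of the 4 that were called, 2 were highest in clone 1. The other 2, Sox9 (230, 288 and 271 counts) and Acan (1120, 1027 and 1004), were highest in clone 2 by CPM. The 6 epithelial markers summed to 3.42, 3.59 and 7.09 CPM. Clone 2 is the clone with the most Loxl3 and the least Loxl2, and the part of macrophages, cartilage cells or other cells in that difference was not tested. In RNA from a whole culture, fewer cells of a type and less RNA per cell cannot be told apart.

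The levels were also scaled to the geometric mean of the 9 fibroblast markers, a calculation added after the data were seen. Lox was then nearly level, at 2137, 2196 and 2140 marker-scaled CPM in clones 1, 2 and 3, or 1.03-fold between the highest and the lowest against 1.24-fold with CPM. Loxl1 and Loxl4 each had 1.13-fold, and their highest clone changed to clone 3 and clone 2. Loxl2 kept its low value in clone 2, with 2734, 2132 and 2717, and its fold narrowed to 1.28. Loxl3 kept its order of clones, with 463, 749 and 609, and its fold widened to 1.62. The highest clone of Lox changed from 1 to 2 and its lowest from 3 to 1. The scale gives each of the 9 markers the same weight, and they did not run alike. Dcn (258, 173 and 130 counts in clones 1, 2 and 3) and Lum (84, 26 and 39) were scarce and highest in clone 1. Their folds between clones were 2.02 and 2.93. Pdgfra, with 2.32-fold, was highest in clone 2. The levels were not computed without the scarce markers, so how far the level of Lox rests on them was not tested. The markers include substrates of the enzymes, so this scale is not independent of the pathway.

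**Figure D3:**
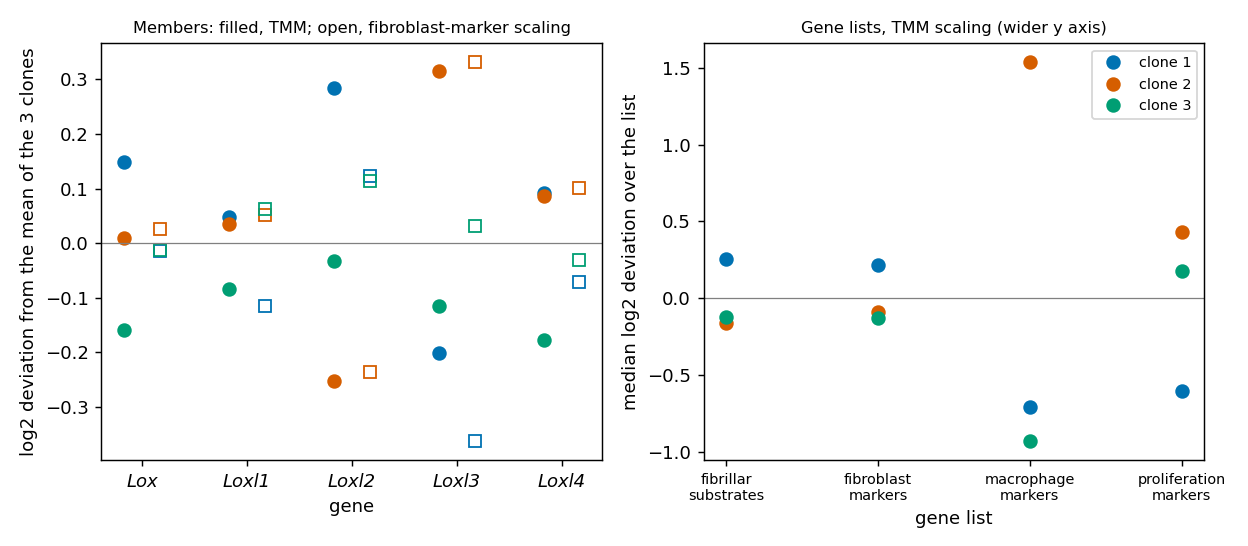
Left, log2 deviation of each member from its mean over the clones, with TMM scaling (filled) and with scaling to fibroblast markers (open); right, median log2 deviation of 4 gene lists, on a wider axis. Lox comes to within 0.03 of its mean with marker scaling, Loxl2 stays low and Loxl3 high in clone 2, where macrophage markers have a median of 1.54.

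The genes that work with the family were read next, from 7 lists. The table holds 63 of their genes, of which 60 could be tested. Of these, 52 were called as differing between clones (86.7%, against 62.5% of all genes tested). The share called over all genes was 54.8% with a minimum of 1 count and 66.7% with a minimum of 50. The lists were not matched for abundance: their medians ran from 5.98 to 1401.5 CPM, against 25.7 CPM over expressed genes. The 86.7% is therefore not read as a trait of the pathway. Of the 52 called, 30 were highest in clone 1, 17 in clone 2 and 5 in clone 3. Over all genes, 2904, 2867 and 1871 of the 7642 called were highest in clones 1, 2 and 3. These shares stand beside the counts of each list below.

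The substrates spread from far above the enzymes to below all of them. Col1a1 and Col1a2, which encode the chains of type I collagen, were at 4673 ± 637 and 2689 ± 392 CPM per kb, and Col5a1 and Col5a2, of type V collagen, were at 730 ± 103 and 661 ± 123 (SD, n = 3). For each CPM per kb of the whole family, there were 3.40 ± 0.165 of Col1a1. The ratio of the family to Col1a1 was 0.279, 0.305 and 0.301 in clones 1, 2 and 3, a narrower range than that of either alone. With the lengths used here, these 4 of the 10 substrate genes were above Lox and Loxl2. At the 835 or 891 CPM per kb that other lengths gave, Loxl2 was above Col5a1 and Col5a2. The ratios of the family rest on the same choice of length. A further substrate gene, Col11a2, was at 1.95 ± 1.23, below Loxl4, and was chosen after its values were seen. All 10 substrate genes were called, 9 of them highest in clone 1 as Lox was. Of all genes tested, 62.5% were called, and 23.8% were called and highest in clone 1. Eln, which encodes elastin and was singled out after its values were seen, had 2259, 346 and 2002 counts in clones 1, 2 and 3, or 5.93-fold between clones, so the family stood at 63.9, 335 and 61.9 times its level per kb.

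Enzymes and chaperones that prepare lysines for cross-linking had a median of 1.14-fold between clones, against 1.47-fold for the substrates. Serpinh1, the collagen chaperone, was at 2019 ± 145 CPM per kb, Ppib, a prolyl isomerase, at 517 ± 35.2, Fkbp10 at 420 ± 3.06 and Plod3, a lysyl hydroxylase, at 157 ± 6.89. Of the 7 genes tested, 6 were called, 5 of them highest in clone 2 and 1 in clone 1. Plod2, the gene highest in clone 1 and named after its values were seen, had 5896, 3467 and 5830 counts in clones 1, 2 and 3, or 1.54-fold, and was lowest in clone 2 as Loxl2 was. Fkbp10 was the gene not called, with 1.01-fold between clones (adjusted p = 0.312, chi-square test with Benjamini-Hochberg adjustment). With the lengths used here, the 5 lysyl oxidase genes together were at 5.10 ± 0.445 times the level per kb of Plod1, Plod2 and Plod3 together.

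The genes that lead to cleavage of the LOX and LOXL1 proenzymes were all transcribed except Tll2. Bmp1, the main protease, was at 257 ± 45.4 CPM per kb, close to Loxl1, and the gene of the related protease Tll1, chosen after its values were seen, was at 56.5 ± 5.44. Fibronectin (Fn1, 3281 ± 962 CPM per kb), thrombospondin 1 (Thbs1, 3081 ± 139), periostin (Postn, 534 ± 116) and Bmp1 were the most abundant by CPM. All 9 genes tested were called, 6 of them highest in clone 1. Tll2 had 4, 4 and 0 counts and was not tested.

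Among genes of proteins that place the enzymes on fibres, Fbln5 was at 392 ± 127 CPM per kb, Efemp2 at 323 ± 20.7, Fbn1 at 113 ± 15.4 and Ltbp4 at 18.2 ± 0.22. They encode fibulins 5 and 4, fibrillin 1 and a TGF-beta binding protein of the matrix. Of the 9 genes tested, 7 were called. Fbln5, which binds LOXL1 at elastic fibres, had 29129, 13346 and 25833 counts in clones 1, 2 and 3, lowest in clone 2, where Loxl1 was at 813 CPM and close to clone 1. Fbln5 was 1.98-fold between clones and Loxl1 1.10-fold.

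Genes that handle copper ran from about the level of Loxl1 to below that of Loxl4. Sod1, another copper enzyme, was at 237 ± 18.8 CPM per kb, near Loxl1, the copper chaperone gene Atox1 at 66.8 ± 10.6, the copper importer gene Slc31a1 at 21.3 ± 1.31 and Atp7a, whose pump loads copper into secreted enzymes, at 6.39 ± 0.75. Atp7b, the related pump of the liver, had 2, 4 and 4 counts and was named after its values were seen. Of the 7 genes tested, 6 were called, 3 of them highest in clone 1, 1 in clone 2 and 2 in clone 3.

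Other amine oxidases were lower than the family. Maoa, of the outer mitochondrial membrane, was at 12.7 ± 1.35 CPM per kb, Aoc3 at 1.77 ± 0.95, Aoc2 at 1.64 ± 0.19 and Maob at 0.80 ± 0.18, all below the 49.9 of Loxl4. Of these 4 genes, Maoa and Aoc3 were called, both highest in clone 1.

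Among 14 regulators, Tgfb3 was the highest, at 161 ± 8.32 CPM per kb, followed in CPM by Egr1 (54.1 ± 10.7), Tgfb2 (37.1 ± 2.01) and Srf (48.5 ± 7.33). Tgfb2 and Tgfb3 encode TGF-beta ligands, and Egr1 and Srf encode transcription factors that serum induces. In this list 12 genes were called, 5 of them highest in clone 1, 6 in clone 2 and 1 in clone 3. The regulators therefore had no common direction between clones.

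**Figure D4:**
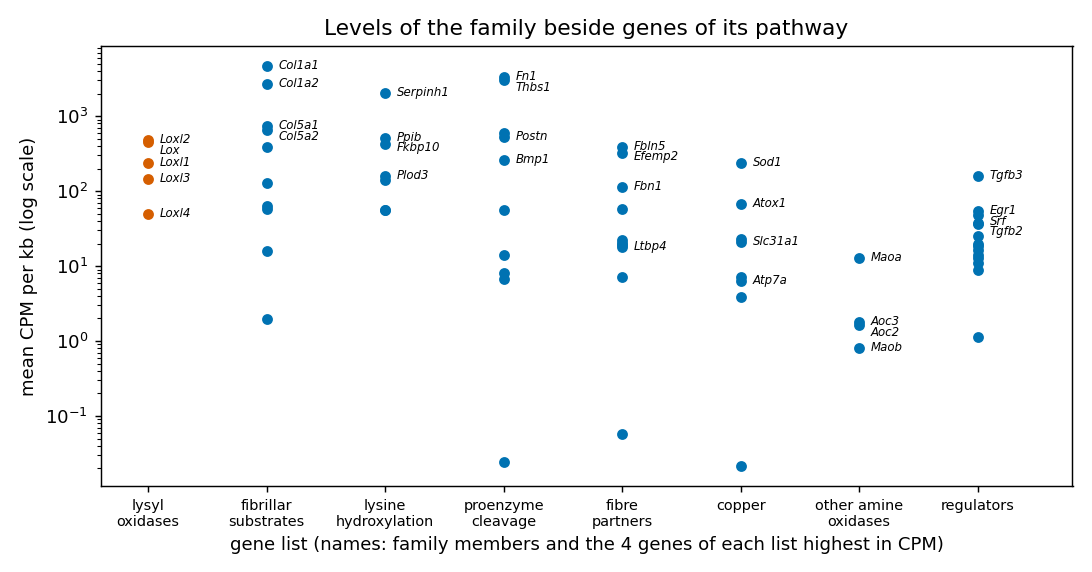
Mean level in CPM per kb (log scale, 3 clones) of the 5 lysyl oxidase genes and of the genes of 7 lists, 1 point per gene. With the transcripts of the longest coding sequences as lengths, the family lies between 49.9 and 478, below Col1a1 at 4673 and above Maoa at 12.7.

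Likeness was then taken over genes whose mean reached 10 CPM, as the distance between their 3 log2 deviations. With 3 clones many genes must lie close, and the names below are a description. For Loxl2, the nearest 3 of 8389 genes were Amdhd2 (distance 0.0051), Col3a1 (0.0117) and Myh10 (0.0135), that is a sugar phosphate enzyme, type III collagen and non-muscle myosin. Col3a1 had 64068, 40408 and 52836 counts in clones 1, 2 and 3, and so was 1.44-fold between clones 1 and 2 where Loxl2 was 1.45-fold. For Loxl3 they were Sh3kbp1 (0.0120), Col12a1 (0.0240) and Sfmbt1 (0.0347). Col12a1, a collagen on the surface of fibrils, had 38643, 50100 and 40823 counts.

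The other members had neighbours outside the matrix. For Lox the nearest genes were Tyk2 (0.0030), Manbal (0.0075) and Chid1 (0.0124), for Loxl1 Stat3 (0.0027), Mrps10 (0.0031) and Snx15 (0.0033), and for Loxl4 Traf3ip2 (0.0066), Tradd (0.0099) and Cnpy2 (0.0106). Within a distance of 0.1, there were 1045 genes for Loxl1, 364 for Lox, 254 for Loxl2, 240 for Loxl4 and 60 for Loxl3. Inside the family, Lox and Loxl4 were nearest to each other (0.0957), and 322 genes were nearer to Lox than Loxl4 was.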

How the data were processed

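The authors deposited raw counts per gene from HTSeq, 1 column per clone. The single-end reads of 86 nt had been aligned with TopHat 2.0.0, which ran on Bowtie 0.12.7 together with version 0.1.16 of Samtools, with up to 2 mismatches and 5 multi-hits. The methods name mm10 and the submitters' processing notes name mm9. The HTSeq version, annotation and strand setting are not given in the sources used here. Total counts were 25261357, 22594316 and 24791198 in clones 1, 2 and 3, and 1 count is 0.0402, 0.0443 and 0.0396 CPM.

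CPM used library sizes scaled by TMM (edgeR 4.0.16, R 4.3.3). Genes at 1 CPM or more in every clone were called expressed. Transcripts were taken from GENCODE M21 (GRCm38), and 99.7% of the genes in the table were matched by symbol or older symbol. The chi-square test had 2 degrees of freedom, and edgeR's intercept-only fit gave the biological coefficient of variation. With 1 library per clone, clone, culture and library cannot be told apart. The chi-square test was tried on simulated counts with counting noise and planted changes. These counts had no spread between clones, so the trial does not show how the test behaves on these libraries. Proteins were aligned with Biopython 1.88 (BLOSUM62).

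The members, lists and rules were chosen with earlier results of these data known. Named from each list are up to 4 genes, those highest in CPM, and those at 3 or fewer counts in every clone, and for each member the 3 nearest genes. Genes named outside this rule are stated as such or bear on a value of a member or a marker list. P3h1, P3h2, P3h3, P3h4, Aoc1 and Adgre1 were not analysed here. Alternatives were DESeq2 1.42.0 size factors, total counts, other count minimums and pseudocounts, other lengths and leaving out each clone.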

Additional observations from a re-analysis of the deposited data

How the results depend on the processing

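The calls of the members rested on the clones compared: leaving out each clone in turn gave 3 to 5 members called of 5, and the lower count came without clone 3, where Loxl1 and Loxl4 were not called. Size factors of DESeq2, total counts and other count minimums left 5 called. Shares of the family depended on the length. With plain CPM, Lox took 34.7%, Loxl1 12.8%, Loxl2 40.6% and Loxl4 2.10%. With the unmatched stretches, they took 25.6%, 13.7%, 48.8% and 2.85%, and with the shortest full coding transcripts 27.5%, 13.7%, 47.1% and 3.26%. Loxl4 took 2.34% with merged exons and 2.57% with the longest coding transcripts. The share of Loxl3 stayed within 1 SD of its value under these lengths. The log2 difference of Lox and Loxl2 per kb, -0.05 with all clones, had no fixed sign: it was 0.01 without clone 1, 0.0088 without clone 3 and -0.18 without clone 2. Scaling to fibroblast markers changed the highest clone of Lox, Loxl1 and Loxl4. Libraries could not be paired because they form 1 group, whereas pairs of genes were compared within each clone.

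Depth did not limit the members, whose smallest count was 2905. The precision is set by 3 clones, by 1 library each, by the unknown counting of reads that fit Loxl2 and Gm21451, and by lengths taken from an annotation rather than from the transcripts these cells made.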
